A study of Mus musculus with 12 samples.

Results

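The 10 genes described here, Parp1, Parp2, Parp3, Parp4, Parp8, Parp9, Parp10, Parp11, Parp12 and Parp14, encode ADP-ribosyltransferases of the PARP family, and every probe of these genes was taken, which gave 18 of the 56605 probes on the array and 10 of the 24232 gene symbols that could be named. Agilent single-colour mouse arrays, 12 in all and 3 per group, were hybridised with RNA from dendritic cells (DCs) grown out of bone marrow with GM-CSF and IL-4. DC Young came from female C57BL/6 mice of 2 months, DC Dysbiotic from mice of the same age given an antibiotic cocktail for 21 days, DC Old from mice of 24 months, and DC Old-LP from mice of 24 months gavaged with Lactobacillus plantarum (LP) for 21 days. DC Old minus DC Young is called the age comparison, DC Dysbiotic minus DC Young the antibiotic comparison and DC Old-LP minus DC Old the LP comparison. All 4 groups were matured with the bacterial component LPS at 1 μg/ml for 24 h, so no unstimulated level is at hand. The DCs of 3 mice were pooled for an array, and if arrays A and B of a group shared a pool the errors below are too small. P-values then measure only the spread between these arrays.

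PARP enzymes use NAD+ to attach ADP-ribose to proteins and nucleic acids. Parp1, Parp2 and Parp3 bind broken DNA and attach chains or single units of ADP-ribose there, which recruits repair factors. Parp9, Parp10, Parp11, Parp12 and Parp14 are known as genes induced by interferon, and most of their products attach a single ADP-ribose or none. LPS makes DCs secrete type I interferon, so both classes are of interest in matured DCs. Parp4, found in the cytoplasmic vault particle, and Parp8, a little-studied mono-ADP-ribosyltransferase, belong to neither class.

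Promoter sequence was taken from RefSeq (GRCm38.p6), which held windows from 250 bases before to 50 bases after the start for 7 of the 10 members and none for Parp9, Parp10 and Parp14. Of 32851 windows in that table, 3.44% held the core of the interferon-stimulated response element, searched on both strands as TTTC, any 2 bases and TTTC again. It was found in the windows of Parp4 and Parp11. Parp4 held it at 2 overlapping positions on the strand opposite to the gene, and Parp11 held it once on the strand of the gene, in one of its 2 windows. The stretches are shown because they set apart the members with this element, with the matching letters in capitals, and Parp3 is shown because it is the member whose level differed most between the groups.
Parp4, chr14:56575447-56575506, + strand: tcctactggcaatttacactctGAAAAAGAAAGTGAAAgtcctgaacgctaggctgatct
Parp11, chr6:127446771-127446830, + strand: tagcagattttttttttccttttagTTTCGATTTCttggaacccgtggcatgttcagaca
Parp3, chr9:106476950-106477049, − strand: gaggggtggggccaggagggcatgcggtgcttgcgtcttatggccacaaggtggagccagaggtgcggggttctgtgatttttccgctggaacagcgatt
The Parp3 stretch is the 100 bases next to the start, with 61% G or C, and has no capitals because its window held neither this element, nor the NF-κB motif GGGA, any base and TTTCC (0.411% of windows), nor the E2F motif TTTCCCGC (1.07% of windows). The last 2 motifs were found in no member window. A match is a match of letters only.

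Values below are log2 of the background-subtracted spot intensity after quantile normalization, and each gene is given at its brightest probe, judged by the mean of the 12 arrays. All 10 of these probes were well above background on 11 or 12 of the 12 arrays and none was saturated. The 12 arrays were not alike. Arrays A and B of all groups lay on one slide and had 61.2% to 66.4% of spots well above background, while the C arrays of DC Young and DC Dysbiotic on another slide, and those of DC Old and DC Old-LP on yet another, had 37.3% to 46.0%. Each group difference is therefore given without a block and, where the call changed, with the replicate letter as a block, which compares arrays of the same letter. For the age comparison, DC Old-LP against DC Young and DC Old against DC Dysbiotic, the C arrays compared lie on different slides. There slide and group cannot be told apart, and the block does not remove this. All 10 DC marker genes, Itgax and H2-Ab1 among them, passed background on every array, except for 1 gene in DC Old-LP. All 8 macrophage markers and all 6 mast cell and basophil markers passed on every array too, so passing does not set DCs apart. DC marker levels were not all alike between the groups. With the block, H2-Ab1 was called at 0.79 and Cd86 at -0.59 in the age comparison (log2 differences). In such bulk RNA, fewer cells of a type and less RNA per cell cannot be told apart.

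**Figure D1:**
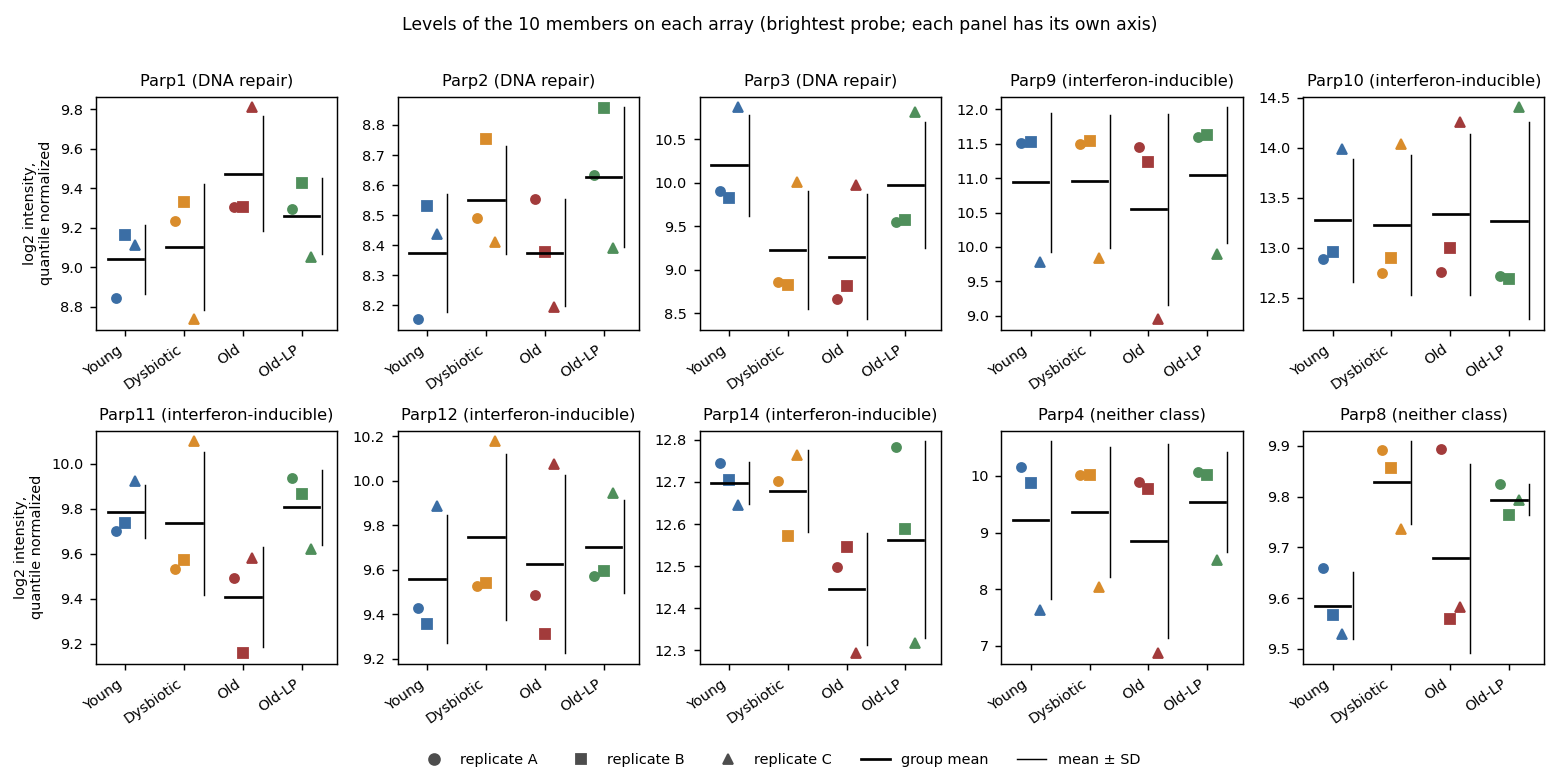
Levels of the 10 members on each array, as quantile-normalized log2 intensity of the brightest probe (vertical axis, own scale per panel) in the 4 groups, with a symbol for each replicate letter, a thick bar at the mean and a thin bar for ± SD. Parp3 on arrays A and B sits at 8.66 to 8.86 in DC Old and DC Dysbiotic and at 9.55 to 9.91 in DC Young and DC Old-LP.

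The clearest pattern was in Parp3, which marks DNA double-strand breaks for end joining. It read 9.91, 9.82 and 10.87 on arrays A, B and C of DC Young, and 8.66, 8.82 and 9.98 on those of DC Old. It read 8.86, 8.83 and 10.01 in DC Dysbiotic, and 9.55, 9.57 and 10.81 in DC Old-LP. At every letter the order was DC Young, then DC Old-LP, then DC Dysbiotic and DC Old, but the C arrays were so much higher that the groups overlapped when letters were set aside. On the A, B and C arrays DC Old was lower than DC Young by log2 differences of -1.25, -1.01 and -0.89, and DC Old-LP was higher than DC Old by 0.88, 0.76 and 0.84.

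Without a block, Parp3 differed between DC Old and DC Young by -1.05 ± 0.52 (log2, SE; a 2.07-fold lower level), with an adjusted p of 0.929 in limma. With the letter as a block the difference was the same, its SE was 0.125, its 95% interval ran from -1.34 to -0.76, and the adjusted p was 0.00629. The antibiotic comparison gave -0.97, with adjusted p of 1 without and 0.0132 with the block in limma. The LP comparison gave 0.83, a 1.77-fold higher level, with adjusted p of 1 without and 0.0213 with the block in limma. DC Old-LP against DC Young gave -0.22 (blocked 95% interval -0.51 to 0.07), and DC Old against DC Dysbiotic gave -0.08 (-0.37 to 0.21). Within the slide that held all groups, arrays A and B alone gave -1.13, -1.02 and 0.82 in the age, antibiotic and LP comparisons, with adjusted p of 0.00178, 0.00403 and 0.00612 in limma. In that slide, 5188, 3477 and 4663 of 56605 probes were called in the same order. The comparisons share arrays, so they are not independent of each other.

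Some blocked calls of Parp3 were lost when 1 array was left out. Against DC Young, DC Old lost its call without array A or B of DC Young (adjusted p 0.0555 and 0.0503 in limma), with log2 differences of -0.98 and -1.05. The antibiotic comparison lost its call without array A or B of DC Young (adjusted p 0.111 and 0.0992 in limma), or without array A, B or C of DC Dysbiotic (0.103, 0.11 and 0.0602), with log2 differences from -0.98 to -0.90. The LP comparison lost its call without array A or B of DC Old, array A or B of DC Old-LP, array B of DC Young, or array A or B of DC Dysbiotic, with adjusted p in limma between 0.059 and 0.122 and log2 differences from 0.76 to 0.86.

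The other Parp3 probes moved less. Parp3 had 3 probes: the brightest was designed to one RefSeq transcript accession and the others to a second. Probe 2, well above background on all 12 arrays, gave log2 differences of -0.33 ± 0.35 (SE) in the age comparison, -0.36 ± 0.35 in the antibiotic comparison and 0.42 ± 0.35 in the LP comparison. On this probe the C arrays of DC Old and DC Old-LP were alike (8.91 and 8.90), whereas arrays A and B of DC Old-LP (10.05 and 9.91) were above those of DC Old (9.35 and 9.35). Probe 3, well above background on 8 arrays, gave -0.39, -0.69 and 0.48 in the same order, on the log2 scale. Neither was called in any of the 5 comparisons over all arrays, with or without the block. Within the slide of arrays A and B, probe 2 was called in the LP comparison (0.63, adjusted p 0.0248 in limma), among 4663 of 56605 probes. Over all arrays the direction of the age, antibiotic and LP differences was shared by all 3 probes. Averaged over its probes, Parp3 gave -0.59, -0.67 and 0.57, and the blocked adjusted p in limma were 0.0423, 0.0421 and 0.0547, so the DC Old-LP call was lost.

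**Figure D2:**
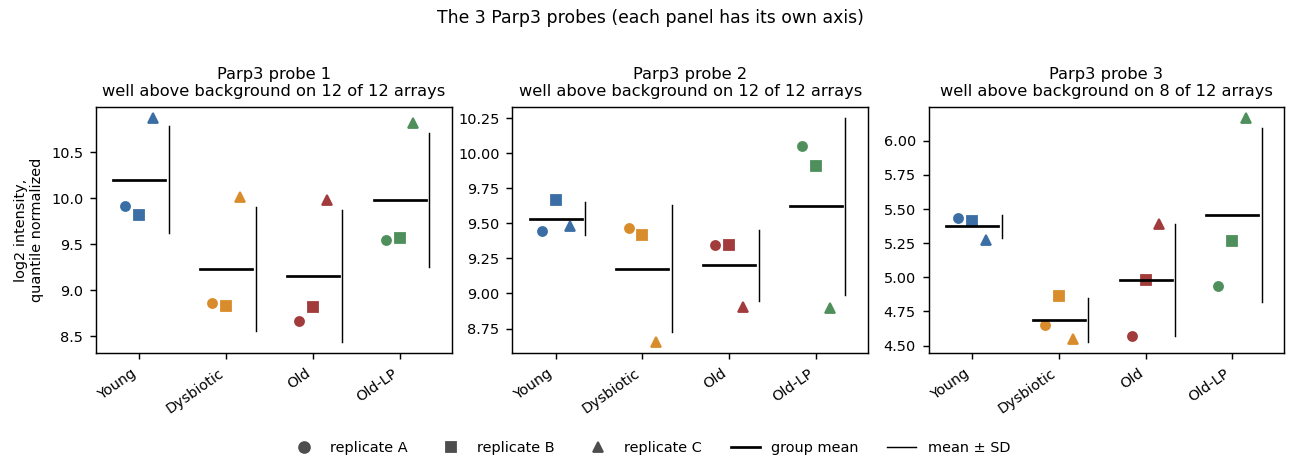
Quantile-normalized log2 intensity of the 3 Parp3 probes (vertical axis, own scale per panel) in the 4 groups, with a symbol for each replicate letter, the mean and ± SD. Probe 1 keeps the same order of groups at every letter, and probe 2 has a different order at each letter.

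Markers of other cell types also differed between the groups, not all in the direction of Parp3. The 8 macrophage markers had median log2 differences of 0.02, 0.05 and 0.04 in the age, antibiotic and LP comparisons. Among them only Fcgr1 was called, with the block, at -1.24 in the age comparison and 0.98 in the LP comparison. Camp, a neutrophil granule gene, read 7.23 to 7.76 in DC Young and 9.95 to 10.52 in DC Old, with a log2 difference of 2.71 (adjusted p 0.0208 in limma), while 6 of the 8 neutrophil and precursor markers were lower in the age comparison and 6 of 8 were higher in the LP comparison. The 8 megakaryocyte and erythroid markers had a median log2 difference of 1.27 in the age comparison (6 of 8 higher), 1.38 in the antibiotic comparison (6 of 8 higher) and -1.17 in the LP comparison (6 of 8 lower). Their summed linear signal was 56240 to 74730 in DC Young, 84740 to 117700 in DC Dysbiotic, 80430 to 120000 in DC Old, while DC Old-LP had 60560 to 80620. Of 5 T cell markers, 4 were lower in the age comparison (median -1.10), 5 were lower in the antibiotic comparison (-0.14) and 4 were higher in the LP comparison (0.84), with 0 called. Their summed linear signal was 3559 to 5911 in DC Old and 7379 to 11170 over the other groups. Of 15 proliferation genes, 15 had a lower mean in DC Old than in DC Young (median -0.93, 1 called without and 4 with the block). In the antibiotic comparison 15 were lower (median -0.54, 0 called), and in the LP comparison 15 were higher (median 0.94, 1 and 5 called). Over all probes, calls in the age, antibiotic and LP comparisons were 0.62%, 0.344% and 0.348% without and 2.18%, 0.984% and 1.65% with the block. The part of these cells or genes in the Parp3 difference was not tested.

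Parp1, the main sensor of DNA strand breaks, did not follow Parp3. It read 8.84, 9.17 and 9.11 on arrays A, B and C of DC Young, and 9.31, 9.31 and 9.81 on those of DC Old. It read 9.23, 9.33 and 8.74 in DC Dysbiotic, and 9.30, 9.43 and 9.05 in DC Old-LP. The 3 arrays of DC Old lay above the 3 of DC Young, but the log2 difference of 0.43 ± 0.25 (SE) was not past the threshold without the block or with it (adjusted p 0.495 in limma), and array C of DC Old was the highest of all. On that array only 37.3% of spots were well above background, the fewest of the 12, and the summed linear signal of 5 B cell markers ran from 3102 to 16630 over the DC Old arrays and from 3670 to 7002 over the others, whose part in the Parp1 level was not tested. The LP comparison gave -0.21 (95% interval -0.77 to 0.34) and the antibiotic comparison gave 0.06 (-0.50 to 0.62).

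Parp2, which shares the strand-break response with Parp1, lay between 8.15 on array A of DC Young and 8.86 on array B of DC Old-LP. Its log2 differences were 0.00 (95% interval -0.50 to 0.50) in the age comparison, 0.18 (-0.32 to 0.67) in the antibiotic comparison and 0.25 (-0.25 to 0.75) in the LP comparison. The second Parp2 probe gave -0.22 ± 0.28 (SE), -0.01 ± 0.28 and 0.22 ± 0.28 in the same order and was not called in any of them. The mean over the 3 DNA repair members, -0.20 in the age comparison, -0.24 in the antibiotic comparison and 0.29 in the LP comparison on the log2 scale, was made up mostly of Parp3.

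Among the interferon-inducible members, Parp14, Parp11 and Parp9 had their lowest means in DC Old. Parp14, a large mono-ADP-ribosyltransferase with macrodomains, read 12.74, 12.70 and 12.64 on arrays A, B and C of DC Young, and 12.50, 12.55 and 12.29 on those of DC Old. It read 12.70, 12.57 and 12.76 in DC Dysbiotic, and 12.78, 12.59 and 12.32 in DC Old-LP. Every DC Old array lay below every array of DC Young and DC Dysbiotic, by small amounts. The log2 difference from DC Young was -0.25 ± 0.20 (SE), with adjusted p of 0.548 in limma with the block, and the LP comparison gave 0.12 ± 0.20. The second Parp14 probe, well above background on 11 arrays, gave -0.71 ± 1.00 and 0.88 ± 1.00 for the same comparisons, mostly from the C arrays, where its DC Old reading was not well above background.

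Parp11, which modifies the interferon receptor pathway, read 9.70, 9.74 and 9.92 on arrays A, B and C of DC Young, and 9.49, 9.16 and 9.58 on those of DC Old. It read 9.53, 9.57 and 10.10 in DC Dysbiotic, and 9.94, 9.86 and 9.62 in DC Old-LP. DC Old was below DC Young and DC Old-LP without overlap, with log2 differences of -0.38 ± 0.23 (SE) from DC Young and 0.40 ± 0.23 in the LP comparison. The adjusted p in limma with the block were 0.476 and 0.444. With array quality weights, which count the C arrays less, the DC Old-LP difference was 0.53 and was called (adjusted p 0.0281 in limma). These weights called 4395 of 56605 probes in the LP comparison, beside 197 with neither weights nor a block. Within the slide of arrays A and B the Parp11 difference was 0.58 (adjusted p 0.053 in limma). The second Parp11 probe, well above background on 8 arrays, gave -0.59 ± 0.87 and 1.28 ± 0.87 for the age and LP comparisons. Its LP difference was 0.31, -0.05 and 3.57 on arrays A, B and C, so it came from the C arrays, where DC Old read 2.26.

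Parp9 forms a complex with the ubiquitin ligase Dtx3l, and the genes overlap in the annotation, so signal from a shared stretch could belong to either. It read 11.52, 11.53 and 9.78 on arrays A, B and C of DC Young, and 11.46, 11.24 and 8.95 on those of DC Old. It read 11.50, 11.54 and 9.84 in DC Dysbiotic, and 11.59, 11.63 and 9.90 in DC Old-LP. DC Old was the lowest group at every letter, with log2 differences from DC Young of -0.06, -0.29 and -0.83, and most of its mean difference of -0.39 came from array C. The LP comparison gave 0.49 (blocked 95% interval 0.06 to 0.92, unadjusted p 0.029 and adjusted p 0.327 in limma). The second Parp9 probe, well above background on 8 arrays, went the other way in the LP comparison, with -0.28 ± 0.65 (SE). Its LP difference was 0.25, -1.16 and 0.08 on arrays A, B and C. It gave -0.30 ± 0.65 in the age comparison and -0.75 ± 0.65 in the antibiotic comparison, where the first probe gave 0.02. Dtx3l, at its own probe, gave -0.18 ± 0.49 (SE) in the age comparison and 0.20 ± 0.49 in the LP comparison.

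Parp10 and Parp12 showed little between the groups. Parp10, a mono-ADP-ribosyltransferase of many cytoplasmic proteins, lay between 12.69 and 13.00 on arrays A and B and between 13.98 and 14.41 on the C arrays, with log2 differences from -0.07 to 0.11 over the 5 comparisons. Parp12, a zinc-finger antiviral member, lay between 9.31 and 9.59 on arrays A and B and between 9.89 and 10.18 on the C arrays, with differences from -0.12 to 0.19. Parp12 was higher in DC Dysbiotic than in DC Young at all 3 letters, by 0.10, 0.18 and 0.29, with adjusted p of 0.74 in limma with the block.

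Parp4 and Parp8 were not called either. Parp4 read 9.77 to 10.16 on arrays A and B of all groups and on the C arrays 7.63 in DC Young, 6.87 in DC Old, 8.03 in DC Dysbiotic and 8.52 in DC Old-LP. Its log2 difference of 0.70 in the LP comparison (blocked 95% interval 0.06 to 1.34, adjusted p 0.359 in limma) was 0.18 and 0.26 on arrays A and B and was carried by the C arrays, where the DC Old reading was not well above background. The second Parp4 probe, well above background on all 12 arrays, gave 0.21 ± 0.40 (SE). Parp8 had the narrowest range, 9.53 to 9.89, and was higher in DC Dysbiotic than in DC Young by 0.24 ± 0.19 (SE), with 3 arrays above 3 and adjusted p of 0.612 in limma with the block. The second Parp8 probe went the other way, with -0.17 ± 0.23.

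**Figure D3:**
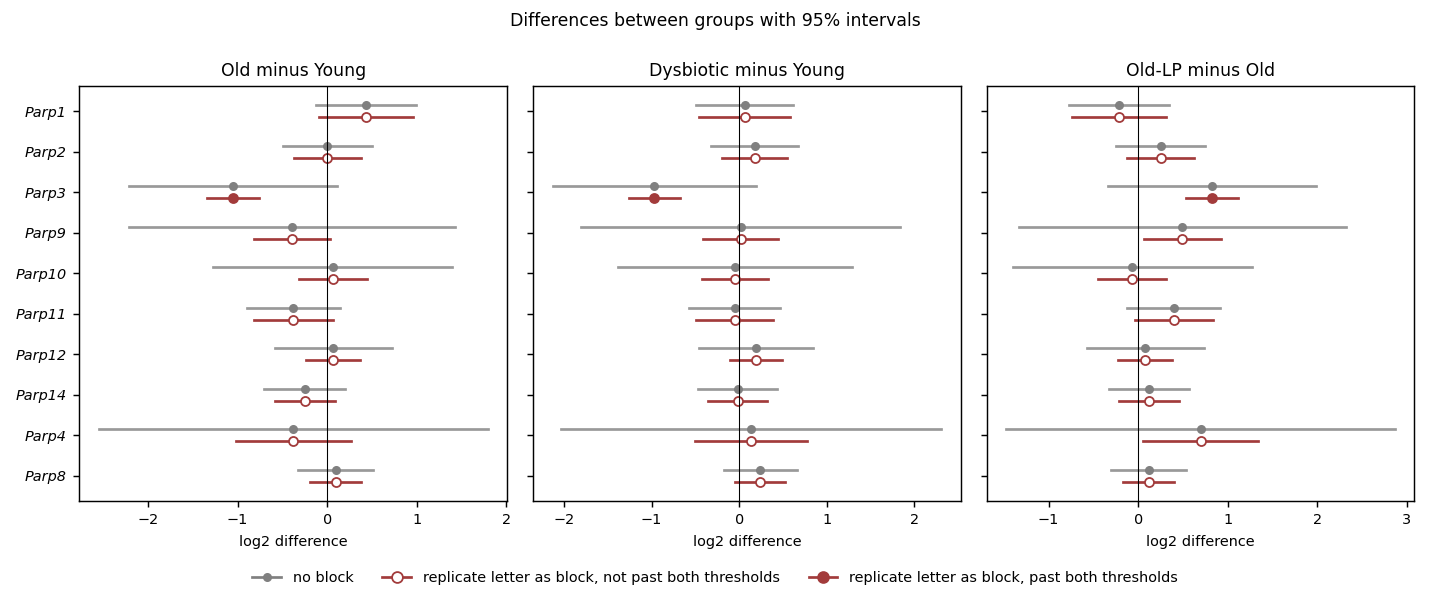
Log2 differences of the 10 members in 3 comparisons (horizontal axis) with 95% intervals, without a block in grey and with the replicate letter as a block in red, filled where both thresholds were passed. Parp3 is the only filled point in each panel, at -1.05, -0.97 and 0.83.

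The count over the family was as follows. Calls needed an adjusted p (Benjamini-Hochberg, limma) no higher than 0.05 and an absolute log2 difference of at least 0.5. Without a block, 0 of 10 members were called in each of the 5 comparisons, and 0 of 10 had an unadjusted p of at most 0.05 with that difference. Over all 56605 probes, calls were 0.62% in the age comparison, 0.344% in the antibiotic comparison, 0.348% in the LP comparison, 0% for DC Old-LP against DC Young and 0.00177% for DC Old against DC Dysbiotic. With the block, 1 of 10 members, Parp3, was called in the first 3 comparisons and 0 of 10 in the last 2, beside 2.18%, 0.984%, 1.65%, 0.00177% and 0.00177% of all probes in the same order. The 95% interval of a member reached a median of 0.60 to each side without and 0.38 with the block on the log2 scale, so smaller differences could not be resolved with 3 arrays a group.

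The 2 classes did not move as blocks. Of the DNA repair members, 2 of 3 were above 0 in the age comparison, Parp2 by only 0.0014, and 1 of 3 was below 0, and 3 of 5 interferon-inducible members were below 0. The mean log2 difference of the interferon-inducible members was -0.18 in the age comparison, 0.02 in the antibiotic comparison, 0.20 in the LP comparison and -0.20 for DC Old against DC Dysbiotic. Their mean deviation per array was -0.08, -0.17 and -0.19 on arrays A, B and C of DC Old and between -0.02 and 0.17 on the other 9 arrays, so the DC Old arrays were lowest. The 3 DNA repair members ranged from -0.28 to 0.21 in DC Old and from -0.14 to 0.36 in DC Young, with overlap, but DC Old was below DC Young at every letter (-0.27 and -0.14 on arrays A, -0.28 and 0.06 on arrays B, 0.21 and 0.36 on arrays C). Over all 10 members the median log2 difference was -0.13, 0.04 and 0.18 in the age comparison, the antibiotic comparison and the LP comparison, beside 0.01, -0.02 and -0.01 over all probes. The difference between the classes was not tested, since the members are few and were chosen with results known.

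**Figure D4:**
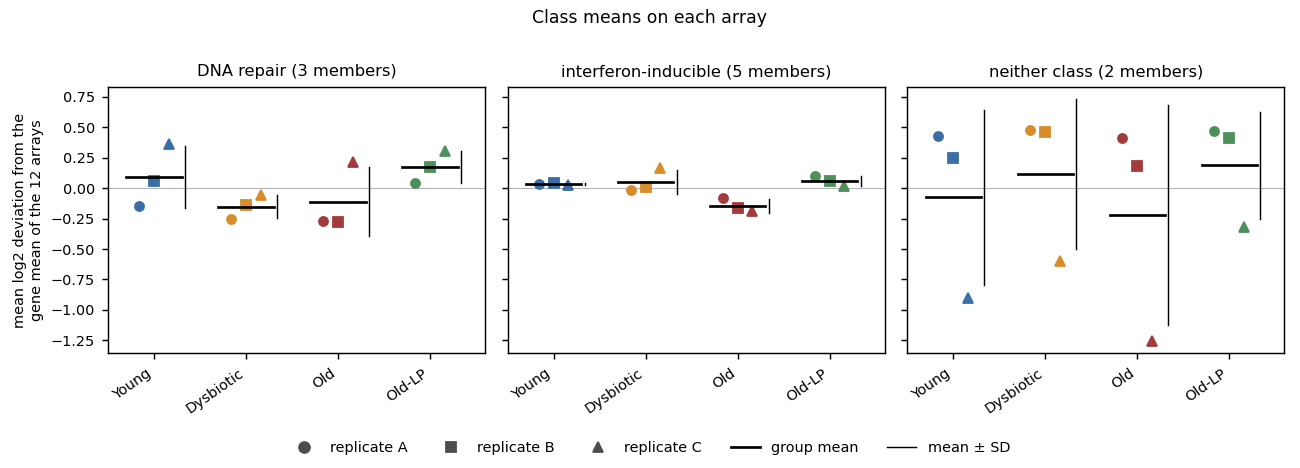
Mean log2 deviation from each gene's mean over the 12 arrays (vertical axis), averaged over the members of a class, for each array of the 4 groups, with the mean and ± SD. The interferon-inducible members are lowest on the 3 DC Old arrays, between -0.19 and -0.08, and the members of neither class are low on all C arrays.

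Related genes were read beside the family. Over all probes, at most 0.62% were called without and 2.18% with the block in any comparison, so 0 calls in such short lists say little about them. Of 6 other PARP genes, including the antiviral Zc3hav1 and the tankyrases Tnks and Tnks2, 0 were called in any comparison, with or without the block, and their log2 differences in the age comparison ran from -0.16 (Zc3hav1) to 0.19 (Parp16). Of 14 genes that remove or read ADP-ribose, 0 were called, and the glycohydrolase Parg gave -0.10 ± 0.21 (SE). Macrod2, a hydrolase of mono-ADP-ribose, was the highest of this list in the antibiotic comparison at 0.92. Of 18 measured partners and single-strand break repair genes, 0 were called, the scaffold Xrcc1 gave -0.09 ± 0.19 in the age comparison, and Timeless, a Parp1-binding replication fork gene, was the lowest at -0.75 and the highest in the LP comparison at 0.80.

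Of 28 interferon-stimulated genes measured, 22 had a lower mean in DC Old than in DC Young, with a median log2 difference of -0.23 beside 0.00 over all genes. Without the block 0 were called. With the block 2 fell, Ifit3 at -1.07 (adjusted p 0.0446 in limma) and the mitochondrial nucleotide kinase Cmpk2 at -1.05 (adjusted p 0.0178 in limma). Over all probes 2.18% were called with the block in the age comparison and 1.65% in the LP comparison. For the LP comparison, 21 of 28 were higher, with a median of 0.15, and with the block 1 rose, Cmpk2 at 1.18 (adjusted p 0.0143 in limma). Isg15, a ubiquitin-like modifier, gave 0.02 ± 0.21 (SE) and 0.12 ± 0.21 in the same comparisons. The 6 interferon and receptor genes had 0 calls, and Ifnb1 was well above background on 4 of 12 arrays.

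**Figure D5:**
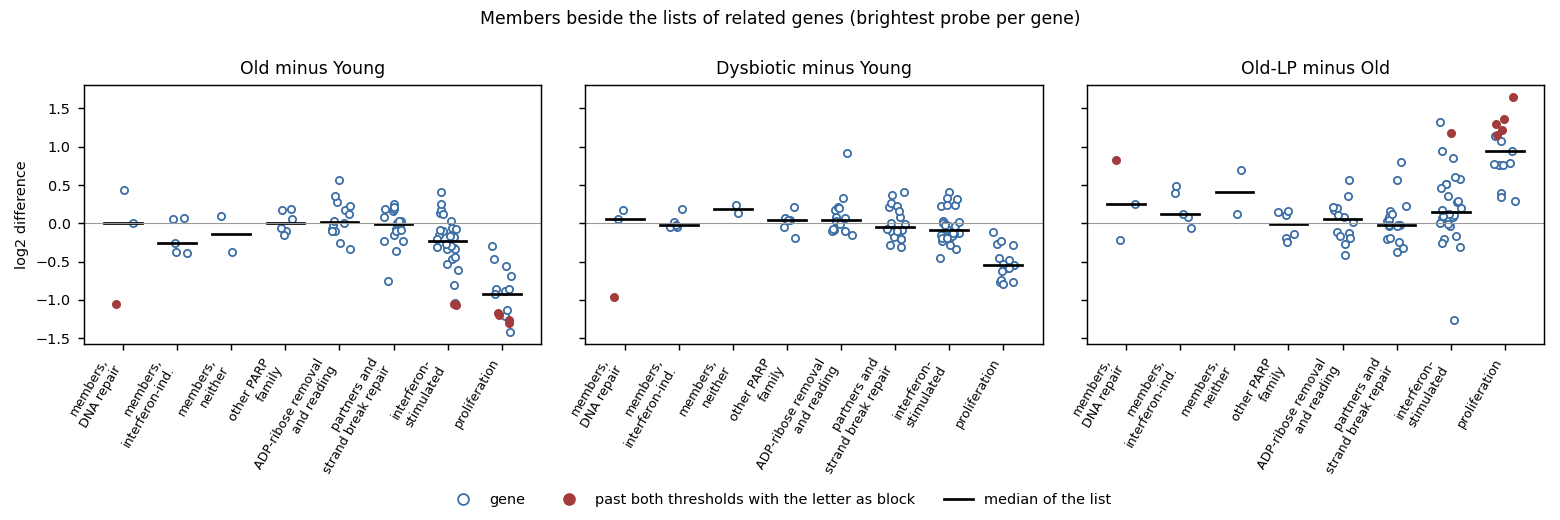
Log2 differences (vertical axis) of the members by class and of 5 lists of related genes in 3 comparisons, one point per gene at its brightest probe, filled where both thresholds were passed with the letter as a block, with a bar at each list's median. Parp3 is the filled point among the members, and the proliferation genes are all below 0 in the age comparison and all above 0 in the LP comparison.

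The genes whose pattern was most like that of Parp3 and Parp14 were sought among 15253 genes, by Pearson's r over the 12 arrays after the mean of each letter was removed. For Parp3 they were Gm11696 (r 0.984), E230029C05Rik (0.983), Rhobtb1 (0.983), Cebpe (0.981) and Msrb2 (0.980). Parp11 was the nearest member at 0.478, and Parp1 was at -0.363. For Parp14 they were Uspl1 (r 0.951), Zfp142 (0.943), Ifi47 (0.938), Kif13b (0.936) and Stk32c (0.927). Of the members, Parp11 stood nearest to Parp14 at 0.733 and Parp1 farthest at -0.661, and outside the 10 members Zc3hav1 was at 0.790 and Dtx3l at 0.671. These arrays share slides and groups, so the values of r are descriptions.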

How the data were processed

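RNA of LPS-matured DCs was measured on 12 arrays, 3 for each of the 4 groups, which were taken from the sample labels. The authors deposited spot intensity values, background-subtracted by Agilent Feature Extraction (version 12.1.1.1 in the file headers, 10.5 in the submitters' notes) and not normalized between arrays, and a log2 table of 46302 probes, which they also deposited and which served as an alternative. From the 59305 spots that are not controls, 1068 outlier readings were set to missing, log2 intensity was quantile normalized and repeated spots were averaged to 56605 probes. Accessions named 35405 probes to 24232 symbols through a RefSeq table of another build than the mm9 of the headers, so no gene coordinates from it were printed. No probe sequence was used here.

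All 12 arrays entered limma 3.58.1 (R 4.3.3; lmFit and eBayes, 1 mean per group), with p adjusted over all probes; all p are two-sided. An exact permutation of 3 against 3 arrays cannot go below p = 0.1 and was not run. Each member was read at its brightest probe and its other probes were compared. The members and the gene lists were chosen with earlier results of these data known. The letters A, B and C were taken to pair the arrays. Deviations from the group means correlated at 0.415 to 0.711 between arrays of the same letter. Between A and B the values were 0.449 to 0.570, and with C they were -0.659 to -0.466, so the block sets apart C rather than A from B. Deviations cancel out within a group, so these signs are partly forced and cannot show that A pairs with A or B with B. The normexp alternative (offset 50) used the median in place of the planned mean signal, since no mean was at hand. The number of arrays limits the precision. The fits were first tested on simulated data. Figures and motif searches used matplotlib 3.10.9 and pandas 2.3.3.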

Additional observations from a re-analysis of the deposited data

How the results depend on the processing

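With the replicate block, 1 member was called where 0 were called without it, in the age comparison, the antibiotic comparison and the LP comparison. The count was also 1 in these 3 comparisons with the slide as a block and within the slide of arrays A and B. With array quality weights it was 1, 1 and 2. Of all 56605 probes, 1528, 1156 and 1860 were called with the slide as a block, in the same order. Within the slide of arrays A and B 5188, 3477 and 4663 were called, and with array weights 5800, 5739 and 4395. With the block and one further change, chosen after the data were seen (75th percentile shift, the authors' log2 table, normexp, intensity trend or outliers kept), the count was 1 in all 3, and with the block and averages over probes it was 1, 1 and 0. Every one of these member calls was Parp3, save Parp11 as the second under array weights. Leaving out 1 array, with or without the block, gave counts from 0 to 1 in these 3 comparisons. Beside them, 112 to 2043, 54 to 1450 and 30 to 1748 of all probes were called. The cause of these differences was not tested. No member was called in the other 2 comparisons under any setting run. The class mean of the interferon-inducible members moved with averages over probes to -0.24 (age) and 0.29 (LP), with or without the block. For the antibiotic comparison it was -0.044 within the slide of arrays A and B and -0.039 with array weights, and -0.054 to 0.071 with 1 array left out. For DC Old against DC Dysbiotic it was -0.12 within that slide, -0.11 with array weights, and -0.25 to -0.12 with 1 array left out. Parp3 kept the sign of its difference in 42 of 42 settings in each of the 3 comparisons, Parp11 in 42 of 42 in the age comparison and in the LP comparison, and Parp2 in 29 of 42 in the age comparison. Many of these settings, such as the block, the intensity trend or leaving out an array of a group not compared, leave the difference itself unchanged. Their signs could not differ, so these counts overstate the agreement. The lower share of spots above background on the C arrays limits dim probes most.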
